A study of Mus musculus with 5 samples.

Results

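The 7 mRNAs described here encode spectrins and adducins, the core of the membrane skeleton. They are Sptan1, Sptb, Sptbn1 and Sptbn4 (4 spectrins) and Add1, Add2 and Add3 (3 adducins). They were found by gene symbol in a table of 10329 genes, and all 7 were present. The set was selected on symbol, with the counts and signal of these genes at the 5 time points already known, so those values are given as a description and carry no test. Ribosome-protected mRNA fragments (footprints) had been sequenced from hippocampal-cortical slices. The mice were C57BL/6N males, wild type, aged 28 to 35 days. Slices had recovered for 3 to 4 h and were then kept in 20 µM homoharringtonine (HHT) for 0, 5, 10, 30 or 60 min. The vehicle was 0.05% DMSO, and vehicle-only slices at the later times are not analysed here. HHT stops ribosomes at the start of the coding sequence (CDS) while those already elongating run off. Each time point is 1 library from 1 pool of 10 slices from 2 to 3 mice, so there are 5 groups of 1 and no replicate.

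Spectrin is a long flexible rod built from an alpha and a beta chain, whose tetramers crosslink short actin filaments beneath the plasma membrane. Adducins cap the fast-growing ends of those filaments and help to recruit spectrin to them. In axons, alpha II spectrin, beta II spectrin and adducin build a periodic lattice of actin rings, and beta IV spectrin is concentrated at the axon initial segment and the nodes of Ranvier. Ankyrins tie beta spectrins to ion channels and adhesion molecules of the membrane.

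Sptan1 encodes alpha II spectrin, the alpha chain of most cells other than red blood cells. It lies on chromosome 2, 29965560 to 30031451 (GRCm38), and its listed transcript, NM_001177668, has a CDS of 7374 nt. Sptb, the beta I chain of red blood cells that is also made in brain and muscle, lies on chromosome 12, 76580488 to 76710547 (NM_013675, CDS 6990 nt). Sptbn1, the widely made beta II chain, lies on chromosome 11, 30099395 to 30268384 (NM_175836, CDS 7092 nt). Sptbn4, the beta IV chain, lies on chromosome 7, 27356383 to 27447704, and its listed transcript, NM_001199235, has a CDS of 3726 nt, although beta IV spectrin is also made in a longer form. Add1, the widely made alpha adducin, lies on chromosome 5, 34573664 to 34632308 (NM_001024458, CDS 2208 nt). Add2, the beta adducin of brain and red blood cells, lies on chromosome 6, 86028681 to 86124409 (NM_001271860, CDS 1689 nt). Add3, the widely made gamma adducin, lies on chromosome 19, 53140443 to 53247326 (NM_001164100, CDS 2025 nt). A long CDS takes longer to clear of ribosomes. Sptan1, Sptb and Sptbn1 have nearly the same CDS length, and the adducins are all much shorter.

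Library totals lay between 1346175 counts at 60 min and 7155147 at 0 min. Of 8 neuronal markers, 7 had a level above 0 at 0 min in a second deposited table, which gives TPM, a level per transcript length and library, rounded to whole numbers; Snap25 is listed there at 0 in all 5 libraries, so a 0 in that table is no proof of absence. Of 10 red blood cell markers, 5 appear in that table, and their summed TPM was 0 in 4 libraries and 1 at 30 min. Summed TPM of 5 microglial markers was 287, 130, 68, 61 and 50 in time order, that of 5 astrocyte markers 4437, 4243, 3659, 3284 and 3095, and that of 5 oligodendrocyte markers 14315, 26218, 33890, 26444 and 25498. Whether such shifts bear on the members was not tested. These are footprint levels under HHT in whole tissue. Cell number, RNA per cell and the rate at which the marker mRNAs lose footprints cannot be told apart.

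At 0 min the adducins and the alpha chain carried more footprints per length of CDS than the beta chains. The level used is the authors' deposited signal: counts per kilobase of CDS, after 600 nt are taken off its length, scaled by a factor for each library. At 0 min it was 2601 for Add1 (95% counting interval 2523 to 2681), 2258 for Sptan1 (2222 to 2294), 1614 for Add2 (1540 to 1692) and 1557 for Add3 (1493 to 1623). It was 932 for Sptbn1 (908 to 955), 327 for Sptbn4 (308 to 348) and 120 for Sptb (111 to 128). Add2 and Add3 did not differ beyond their counting intervals; all other neighbours in that order did. Such intervals cover counting error of 1 library only, and the spread between pools is unknown. By this signal Add1 ranked 571 and Sptan1 670 from the top of 10329 genes, and Sptb ranked 6828. The place of Sptan1 in this order depended on the table, as described below.

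**Figure D1:**
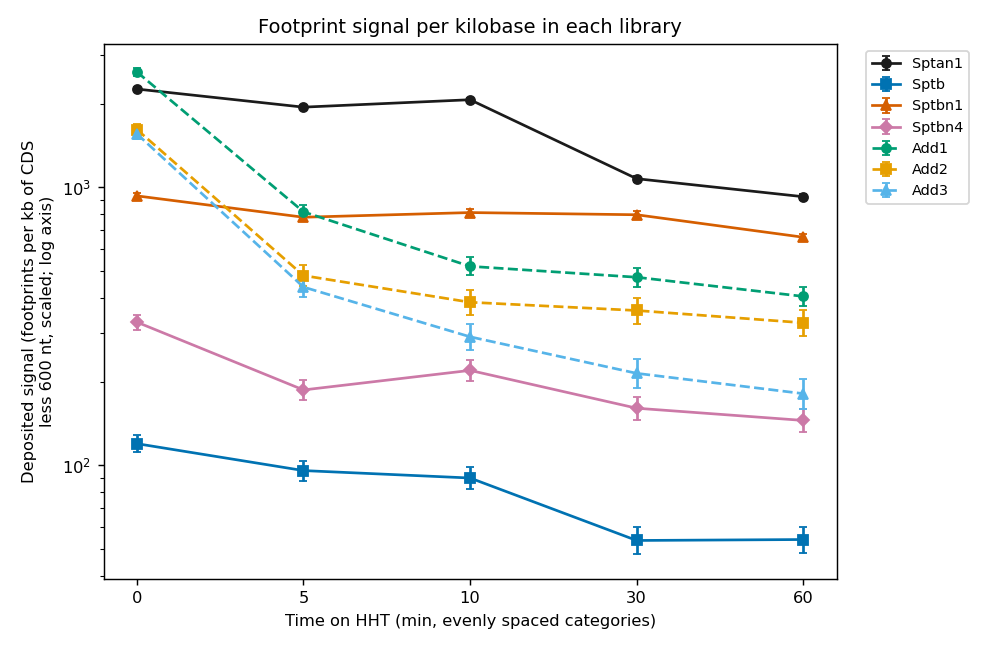
Deposited footprint signal (log axis; counts per kilobase of CDS less 600 nt, scaled by the authors) of the 7 genes in each library, by time on HHT; bars are 95% counting intervals of 1 library, solid lines spectrins and dashed lines adducins. Add1 has the highest signal at 0 min (2601), while the spectrins Sptan1 (925) and Sptbn1 (661) have the highest signals at 60 min.

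Under HHT the spectrin mRNAs kept a larger part of their footprints than most mRNAs. By the count table Add1 and Add3 lay below the median ratio of all genes at each time. Add2 lay near it, at percentile 42.7, 41.9, 50.1 and 59.6 of all genes. By TPM, described below, Add1 at 5 min was at 0.440, above the median of 0.333. Sptbn1 stood apart: its signal at 60 min was 0.710 of its signal at 0 min. The ratio to 0 min is the signal at a later time over the signal at 0 min, with a 95% counting interval. At 60 min it was 0.5 or lower for 6 of the 7 members, against 97.3% of all genes. At 30 min it was again 6 of 7, against 95.4%, and at 5 and 10 min it was the 3 adducins alone, against 78.1% and 84.3% of all genes. Since the members were proposed with these values known, nothing is read from those counts.

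Sptbn1 had 6048, 4891, 4362, 4560 and 4179 counts at 0, 5, 10, 30 and 60 min. Its ratio to 0 min at the 4 later times was 0.838 (0.807 to 0.870), 0.871 (0.837 to 0.906), 0.855 (0.823 to 0.889) and 0.710 (0.682 to 0.739). The intervals of the first 3 ratios overlap, and the 60 min interval lies below them. Its signal at 30 min was 0.982 times that at 10 min (0.942 to 1.02), where the median over the 194 genes with a CDS of 6000 to under 8000 nt was 0.359. Counted from the top of that length class, Sptbn1 held rank 15, 37, 3 and 1 at the 4 times. At 30 min the genes above it were Cep290 and Cntrl, which encode centrosome proteins and were named after their values were seen. Among all genes, 282 of 10329 (2.73%) had a ratio above 0.5 at 60 min.

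Sptb, of nearly the same length, began like Sptbn1 and then lost footprints. It had 764, 590, 476, 302 and 336 counts in time order. Its ratio was 0.800 (0.717 to 0.892) at 5 min and 0.752 (0.670 to 0.845) at 10 min, and it was 0.448 (0.391 to 0.513) at 30 min and 0.452 (0.396 to 0.514) at 60 min. The intervals at 5 and 10 min overlap those of Sptbn1, and those at 30 and 60 min lie far below them. Against the median of the length class (0.658, 0.756, 0.273 and 0.202) Sptb was higher at 5, 30 and 60 min and about equal at 10 min. Its signal at 60 min was 1.01 times that at 30 min (0.860 to 1.18). Sptb was the 1 member of 7 with a higher signal at 60 than at 30 min, against 19.8% of all genes.

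A ratio taken inside 1 library needs no scaling between libraries. Sptbn1 signal over Sptb signal in time order was 7.79 (7.23 to 8.41), 8.16 (7.49 to 8.90), 9.02 (8.20 to 9.94), 14.9 (13.2 to 16.8) and 12.2 (11.0 to 13.7). The intervals at 30 and 60 min lie above all 3 earlier ones. The TPM table gave 8.08, 8.06, 8.94, 15.2 and 12.1 for the same ratio. The sources used here do not say how reads shared by beta chains were assigned.

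Sptbn4 has a shorter listed CDS and kept part of its footprints late. It had 1023, 563, 568, 442 and 441 counts, with ratios of 0.570 (0.514 to 0.633), 0.670 (0.604 to 0.744), 0.490 (0.437 to 0.548) and 0.443 (0.395 to 0.496). At 5 min it was near the median of the 894 genes with a CDS of 3000 to under 4000 nt, 0.529. At 10, 30 and 60 min that median was 0.420, 0.238 and 0.189, and Sptbn4 exceeded 92.1%, 96.0% and 96.5% of those genes. Its signal at 10 min was 1.18 times that at 5 min (1.04 to 1.32), where the class median was 0.789. By TPM, described below, its ratios were 0.539, 0.533, 0.343 and 0.280, without that rise. The length class is that of the listed CDS, and a longer form is also made.

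Sptan1 had 15295, 12706, 11593, 6415 and 6100 counts, the most of the 7 in every library. Its ratios in the count table were 0.861 (0.841 to 0.881), 0.915 (0.893 to 0.938), 0.476 (0.462 to 0.490) and 0.410 (0.398 to 0.422), with another course in the TPM table, described below. The widest gap between neighbouring times lay between 10 and 30 min, where its signal at 30 min was 0.520 times that at 10 min (0.504 to 0.536), against 0.359 for the median of its length class. Sptan1, Sptbn1 and Sptbn4 had a higher signal at 10 than at 5 min, as did 31.7% of all genes, and for Sptbn1 the interval of that step included 1 (0.998 to 1.08).

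**Figure D2:**
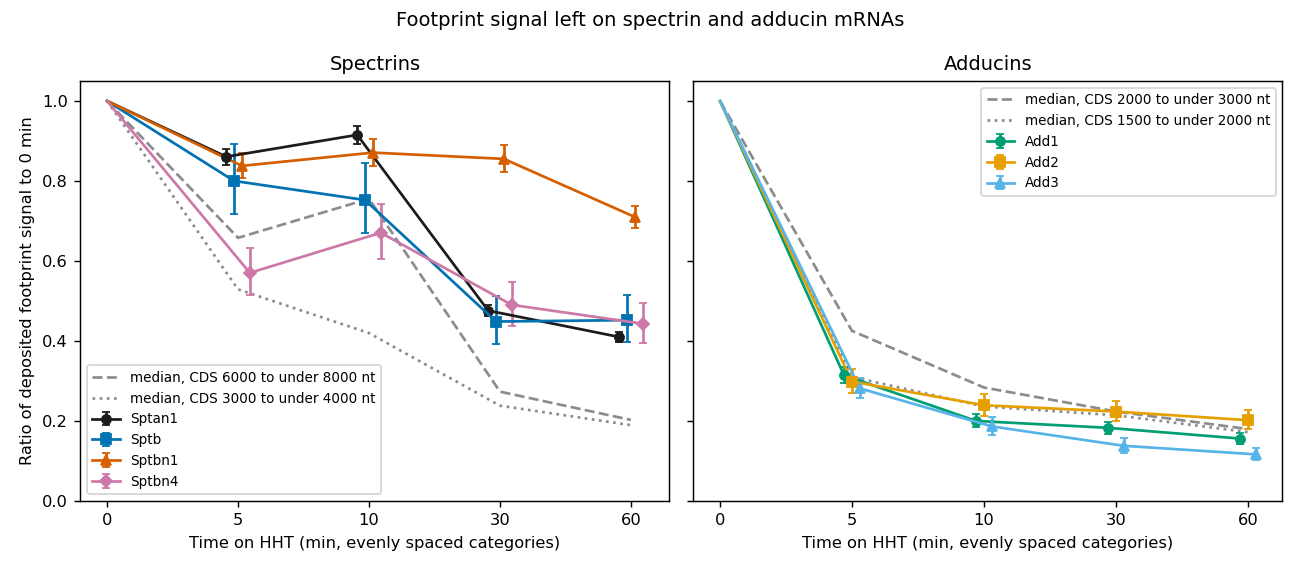
Ratio of deposited signal to 0 min for the spectrins (left) and adducins (right) by time on HHT, with 95% counting intervals; grey lines are medians over all genes of the stated CDS length. Sptbn1 stays at 0.855 at 30 min while Sptan1 and Sptb are at 0.476 and 0.448, and all 3 adducins are at 0.314 or lower by 5 min.

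The 3 adducins lost most of their footprints within 5 min. Add1 had 4183, 1267, 692, 673 and 634 counts and ratios of 0.314 (0.294 to 0.334), 0.200 (0.184 to 0.217), 0.183 (0.168 to 0.198) and 0.156 (0.143 to 0.169). Add2 had 1758, 506, 348, 346 and 345 counts and ratios of 0.298 (0.270 to 0.329), 0.239 (0.212 to 0.268), 0.223 (0.198 to 0.251) and 0.202 (0.179 to 0.226). Add3 had 2219, 602, 342, 269 and 251 counts and ratios of 0.281 (0.256 to 0.308), 0.186 (0.166 to 0.209), 0.138 (0.121 to 0.156) and 0.116 (0.102 to 0.132). At 5 min their intervals overlap, and at 60 min the 3 are apart in the order Add2, Add1, Add3.

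The 1928 genes with a CDS of 1500 to under 2000 nt had medians of 0.310, 0.236, 0.214 and 0.172. These lay within the counting intervals of Add2 at 5, 10 and 30 min, and at 60 min Add2 was higher than the median of this class. Add1 and Add3 lay below the medians of the 2073 genes of 2000 to under 3000 nt at every time, which were 0.425, 0.283, 0.223 and 0.180. By TPM, described below, Add1 was at 0.440 at 5 min, above that median. Add3 lay at percentile 9.12 of that class at 5 min and 14.0 at 60 min, and Add1 at 15.1 and 36.2. Inside each library, Add2 signal over Add3 signal in time order was 1.04 (0.973 to 1.10), 1.10 (0.975 to 1.24), 1.33 (1.14 to 1.55), 1.68 (1.43 to 1.98) and 1.80 (1.52 to 2.12). In the TPM table the same ratio was 0.789, 0.813, 1.07, 1.36 and 1.36. In both tables the ratio is higher at 30 and 60 min than at 0 min, while its level differs between the tables.

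**Figure D3:**
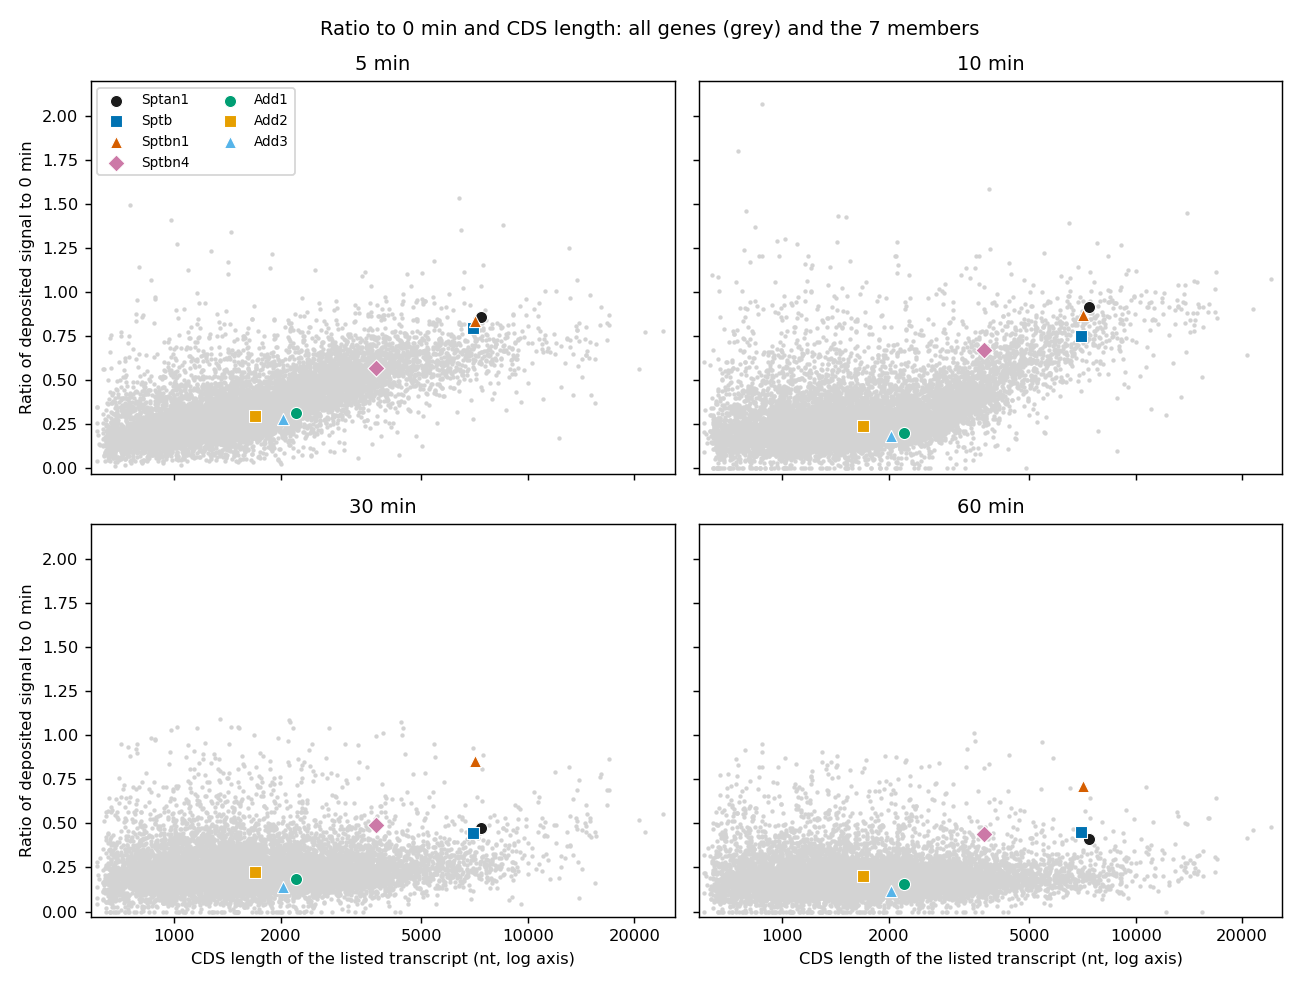
Ratio of deposited signal to 0 min against CDS length of the listed transcript (nt, log axis) at 5, 10, 30 and 60 min; grey points are all 10329 genes and coloured symbols the 7 members. The long spectrins lie near 0.8 to 0.9 at 5 min where long genes in general are high, and Sptbn1 alone of the 7 stays above 0.5 at 30 and 60 min.

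Folds relative to other mRNAs were taken from counts scaled by edgeR's TMM, which sets the typical gene near 0. The log2 folds of Sptbn1 at 5, 10, 30 and 60 min were 1.33, 1.71, 1.92 and 1.95, and those of Add3 were -0.24, -0.52, -0.72 and -0.65. The medians over the 7 members were 0.78, 1.33, 0.98 and 1.16, against 0.0046, 0.0079, -0.02 and -0.02 over all genes. The 4 spectrins were above 0 at all 4 times and Add2 at 60 min, so 4, 4, 4 and 5 of 7 members, against 50.2%, 50.3%, 49% and 48.9% of all genes. Sptan1, Sptb and Sptbn1 were at least 2-fold higher at 5 min, against 6.11% of genes that had 100 counts or more when both libraries were summed. All 4 spectrins were at 10 min, against 13.1%, Sptan1, Sptbn1 and Sptbn4 at 30 min, against 3.92%, and all 4 at 60 min, against 4.54%. At 30 min Sptb, at 0.98, was just short of 2-fold. On the log2(TPM + 1) scale Sptan1 was below 2-fold at every time (0.48, 0.62, 0.77 and 0.35), and so was Sptbn4 at 10, 30 and 60 min (0.88, 0.49 and 0.44). The 2-fold calls of Sptbn1 and Sptb held on that scale, and Add1 at 5 min had 0.55 in place of -0.08. None of the 7 was at least 2-fold lower at any time, against 5.77%, 5.68%, 4.42% and 5.08% of genes. With the authors' library factors in place of TMM all 28 member folds were below 0, beside medians over all genes of -1.59, -1.89, -2.16 and -2.46. All 4 times share the 0 min library.

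The deposited tables differed for 3 of the 7 genes, and the difference was largest for Sptan1. For the typical gene, signal divided by TPM had 1 value per library, with a median of 1.94 at 60 min and 9.53 at 0 min over genes with at least 10 TPM. For Sptbn1 this quotient was 101% to 105% of the library median in all 5 libraries, for Sptb 101% to 106% and for Add3 108% to 111%. For Add2 it was above the median by a nearly steady factor (137% to 149%). For Sptan1 it was 34.3%, 70.2%, 71.7%, 39.4% and 54.2% in time order, for Sptbn4 143%, 151%, 180%, 205% and 227%, and for Add1 93.8%, 66.9%, 82.3%, 79.5% and 84.0%.

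Ratios to 0 min were therefore also taken from TPM, placed on the scale of the signal by those library medians. Sptan1 had 692, 966, 1064, 1184 and 881 TPM, which gives ratios of 0.420, 0.437, 0.414 and 0.259. Its high ratios at 5 and 10 min in the count table, 0.861 and 0.915, do not appear there, and at both times its TPM ratio lies below the median of its length class, 0.658 and 0.756. Sptbn4 had TPM ratios of 0.539, 0.533, 0.343 and 0.280, lower than by counts at 10, 30 and 60 min. Add1 had TPM ratios of 0.440, 0.228, 0.215 and 0.174, higher than by counts. For Sptbn1 they were 0.825, 0.839, 0.833 and 0.686, within the counting intervals of the count table, and those of Sptb, Add2 and Add3 also lay within theirs. The separation of Sptbn1 from Sptb, Add2 and Add3 thus holds in both tables, while the course of Sptan1 does not.

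**Figure D4:**
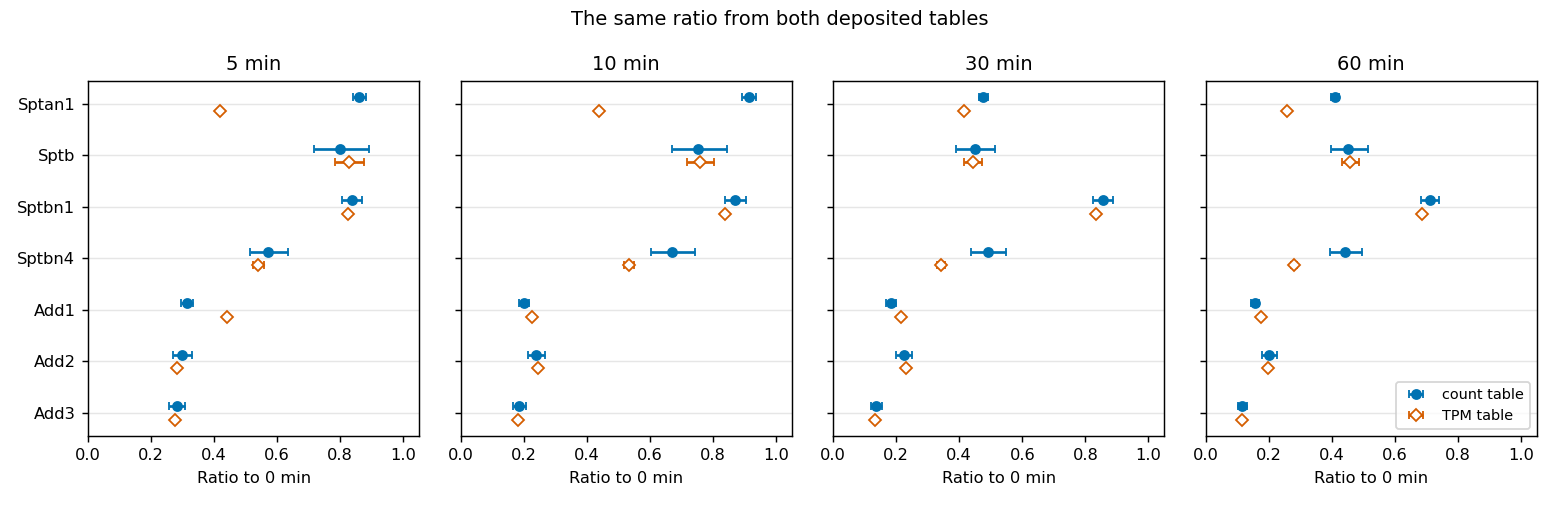
Ratio to 0 min of each member from the count table (filled circles, 95% counting intervals) and from the TPM table (open diamonds, range allowed by rounding to whole TPM) at 5, 10, 30 and 60 min. The ranges overlap at all 4 times for Sptb, Sptbn1, Add2 and Add3, and for Sptan1 they lie at 0.861 and 0.420 at 5 min.

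The count table lists 1 transcript a gene, and GRCm38.p6 holds 4 curated RefSeq transcripts for Sptan1, 4 for Sptbn4 and 11 for Add1, against 1 for Sptb, 2 for Sptbn1, 6 for Add2 and 5 for Add3. Over 3252 genes with at least 50 TPM at 0 min, the TPM and count ratios at 60 min differed by more than 1.5 times for 5.93%. The share was 7.51% of the 1732 genes with 2 or more curated transcripts and 4.15% of the 1518 with 1. Whether the assignment of reads to transcripts set these differences was not tested. Of the members, Sptan1 differed by more than 1.5 times at 5, 10 and 60 min, and Sptbn4 at 60 min.

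Alpha and beta chains assemble one to one, so their footprint density was set side by side within each library. Sptan1 signal over the summed signal of Sptb, Sptbn1 and Sptbn4 was 1.64, 1.83, 1.84, 1.06 and 1.08 in time order. From TPM it was 5.20, 2.82, 2.93, 3.04 and 2.28. The tables therefore give no common value for this ratio. Of the summed signal of these 3 beta chains Sptbn1 held 76.9% at 60 min and 67.6% at 0 min, and by TPM 84.5% at 60 min and 72.9% at 0 min.

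The alpha adducin forms dimers or tetramers with beta or gamma adducin. Add1 signal over that of Add2 and Add3 together was 0.820, 0.888, 0.769, 0.826 and 0.800 in time order, a narrow range. By TPM it was 1.07, 1.69, 1.16, 1.31 and 1.23, with the 5 min library highest. Add1 held 45.1%, 47.0%, 43.5%, 45.2% and 44.4% of the adducin signal, and Add3 27.0%, 25.2%, 24.2%, 20.4% and 19.9%.

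Partners of the membrane skeleton were described from 6 lists of 40 genes, 34 of them in the count table. At 60 min 22 of the 34 had a log2 fold above 0, against 48.9% of all genes, and their median was 0.31. Partner folds are from counts, and some differ by TPM. By counts 21, 24, 21 and 22 partner genes were above 0 in time order. On the log2(TPM + 1) scale 24, 20, 17 and 18 were, where the medians over all genes were 0.09, -0.04, -0.08 and -0.12.

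All 3 ankyrins had log2 folds above 0 at every time, against 50.2%, 50.3%, 49% and 48.9% of all genes. None reached 2-fold at 60 min, where 4.54% of genes with 100 counts or more were at least 2-fold higher. Their CDS are 5637 nt (Ank1), 3153 nt (Ank2) and 5181 nt (Ank3). Ank1 and Ank3 belong to the genes with a CDS of 4000 to under 6000 nt. Median ratios to 0 min of that class were 0.604, 0.601, 0.252 and 0.200. Ank2 belongs to the class of 3000 to under 4000 nt, with medians of 0.529, 0.420, 0.238 and 0.189. Over all genes these medians were 0.333, 0.268, 0.223 and 0.181. By counts the ratios at 60 min were 0.317 for Ank1, 0.351 for Ank2 and 0.279 for Ank3, above their class medians. At 5 min Ank3, at 0.603, was about equal to its class median. The ankyrin folds at 60 min were 0.94 for Ank2 (0.89 to 0.99), 0.78 for Ank1 (0.41 to 1.16) and 0.61 for Ank3 (0.53 to 0.69). By TPM the rise was smaller for Ank2 (411 at 60 min and 358 at 0 min) and Ank3 (210 and 191). Ank1 had 9 TPM at 60 min and 6 at 0 min. The counting intervals do not cover this difference between TPM and counts. Ank3 is the ankyrin of the axon initial segment. Of 7 measured membrane proteins that ankyrins bind, 6 were above 0 at 60 min by counts, against 48.9% of all genes. Of these 6, Nrcam, at 0.17 by counts, had fewer TPM at 60 min (766) than at 0 min (988). The others of the 6 had more. The median of the 7 was 0.49, and 0 were 2-fold apart in either direction. Of genes with 100 counts or more, 4.54% were at least 2-fold higher and 5.08% at least 2-fold lower. The potassium channel subunit Kcnq3 was highest at 0.79 and the adhesion molecule Nfasc lowest at -0.19. The sodium channel Scn8a had 1.63 at 10 min and 0.29 at 60 min. The cell adhesion molecule L1cam had 1.55 and 0.58 at those times.

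The 9 proteins that bind the ends or sides of actin filaments were all below 0 at 5, 10 and 30 min. At these times 50.2%, 50.3% and 49% of all genes were above 0. The medians of the 9 were -0.97, -0.58 and -0.55, and their CDS are short. At 60 min the median was -0.47 and 1 of 9 was at least 2-fold lower, against 5.08% of genes with enough counts. This was Tmod1, a tropomodulin that caps slow-growing filament ends (31 counts at 60 min and 393 at 0 min, fold -1.15, -1.75 to -0.65). Tpm1, a tropomyosin, had 1135, 185, 167, 208 and 383 counts, with folds of -0.97, -0.58, -0.12 and 0.92 (0.75 to 1.09 at 60 min). Dmtn, dematin, which bundles actin and binds spectrin, had -0.30 at 60 min. The proteases that cut spectrin and their inhibitor, 4 genes, had a median of -0.02 at 60 min, from Capns1 at 0.14 to Capn2 at -0.11. The intervals of all 4 at 60 min include 0.

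By counts the 11 other proteins with spectrin repeats were all above 0 at each time, against 50.2%, 50.3%, 49% and 48.9% of all genes. By TPM this did not hold for Dmd (30 at 60 min and 43 at 0 min) or Actn4 (70 at both). The others of this list had more TPM at 60 than at 0 min. Their CDS run from 2679 nt (Actn1) to 20625 nt (Syne2). Genes with a CDS of 8000 nt or more had median ratios to 0 min of 0.705, 0.861, 0.378 and 0.244. Over all genes these medians were 0.333, 0.268, 0.223 and 0.181. At 60 min 4 of the 11 proteins were at least 2-fold higher, against 4.54% of the genes with enough counts. These 4 were the giant cytolinkers Macf1 (1.54) and Dst (1.53), the nuclear envelope protein Syne2 (1.17) and the actinin Actn2 (1.36, 0.93 to 1.83). Actn2 has a CDS of 2685 nt. Dmd and Utrn, dystrophin and utrophin, had 0.62 each, and Actn4, the lowest, had 0.19. The 4 protein 4.1 genes, which strengthen the bond of spectrin to actin, were found in the TPM table alone: Epb41l3 had 391 TPM at 60 min and 184 at 0 min, Epb41l1 126 at 60 min and 118 at 0 min, Epb41 18 at 60 min and 22 at 0 min, and Epb41l2 44 at 60 min and 83 at 0 min.

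**Figure D5:**
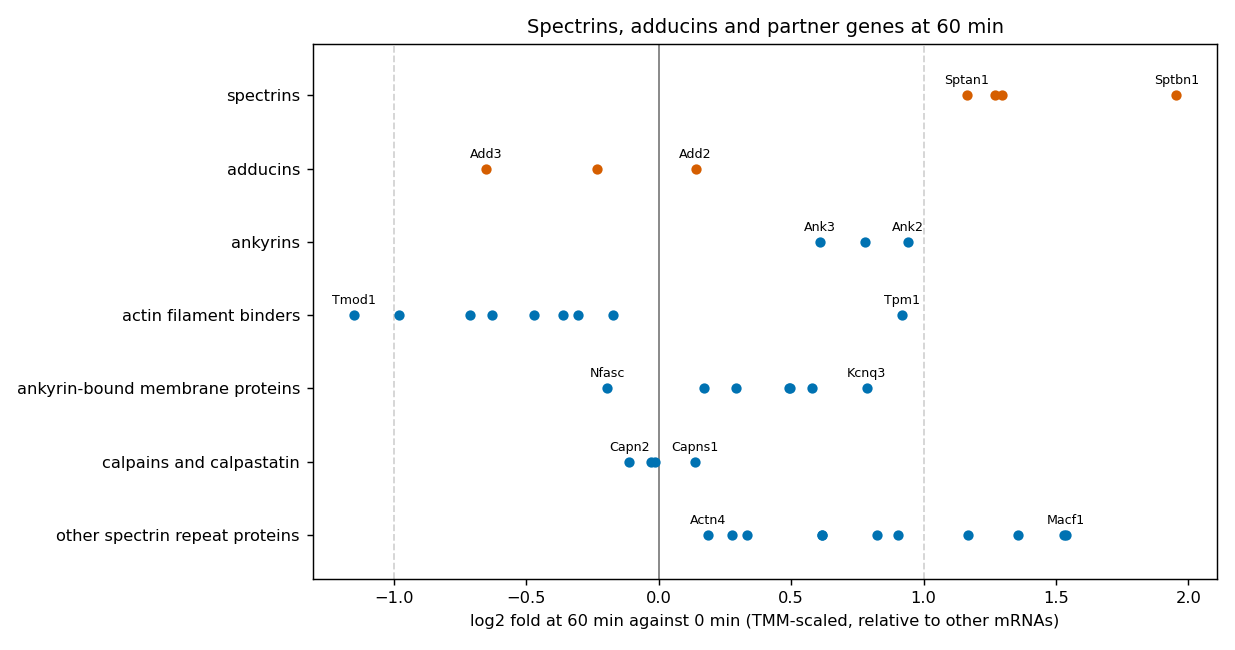
TMM-scaled log2 fold at 60 min against 0 min of each measured gene, with the members in orange and the partner lists in blue; the lowest and highest gene of each row is named, and dashed lines mark 2-fold. The 4 spectrins lie between 1.16 and 1.95, the adducins between -0.65 and 0.14, and the actin filament binders are below 0 apart from Tpm1 (0.92).

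The genes nearest to each member were sought by the distance between their 4 log2 folds, among genes with at least 100 counts at 0 min and 20 at each later time. By the count table the members themselves fell into 2 sets. Sptan1 and Sptb were 0.35 log2 units apart, Sptbn1 and Sptbn4 1.25, Add1 and Add2 0.54, and Add2 and Add3 1.12. Between the sets, Sptbn4 and Add2 were 2.37 apart, Sptan1 and Add1 3.28, and Sptbn1 and Add3 4.60. On the log2(TPM + 1) scale Sptan1 had lower folds (0.48, 0.62, 0.77 and 0.35). Its place among the spectrins and its nearest genes therefore rest on the count table. Sptbn1 had no close match: its nearest genes were Dnaaf2 (distance 0.31), Gm21949 (0.37) and Pgr (0.37), all with a CDS of 2781 nt or less. Sptan1 was nearest to Col4a5 (0.16), Tmem5 (0.25) and Pkd1 (0.28), Sptb to Jag2 (0.09), Trib2 (0.24) and Slc4a3 (0.25), and Sptbn4 to Syne2 (0.15), Gpr180 (0.18) and Ankzf1 (0.20). The adducins had closer matches: Add1 was nearest to Wdr48 (0.06), Ppil4 (0.07) and Ctnnb1 (0.08), Add2 to Cadm4 (0.05), Ctsa (0.08) and Klc1 (0.10), and Add3 to Mau2 (0.15) and Wdr1 (0.18). Each distance rests on 4 folds that share the 0 min library.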

How the data were processed

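Reads of 75 bp from ribosome footprints are the source of all values. The submitters' processing notes list TopHat2 2.0.9, Bowtie2 2.1.0, SAMtools 0.0.19, Trimmomatic 0.32, cutadapt 1.7.1 and the mm10 build, without order or settings. RSEM, and a CDS without its ends, stand in the deposited names. The authors deposited expected counts (whole numbers as listed, rounded again without change) and a signal per gene, the count per kilobase of CDS less 600 nt over library factors of 1, 0.965, 0.828, 0.882 and 0.973. They also deposited ratio columns, which equal the signal over that at 0 min, and a score for 18527 genes, TPM rounded to whole numbers.

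Total counts were 7155147, 2787749, 2022152, 1504748 and 1346175 in time order. Ratios and their exact conditional binomial 95% intervals were computed here; they cover counting error only. Log2 folds used edgeR 4.0.16 TMM factors (R 4.3.3; mean of at least 10 counts, 9444 genes) and a prior count of 2. No test was run, since each time has 1 library and the members and lists were chosen with earlier results of these data known. DESeq2 1.42.0 size factors, a prior count of 0.5, no filter, the deposited factors and log2(TPM + 1) were alternatives. Named genes are the 7 members, partner-list genes including the highest and lowest at 60 min, and the 3 nearest in pattern; some of these are not reported here. Interval code was tested on simulated data. Gene positions are from RefSeq on GRCm38.p6, the assembly behind mm10.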

Additional observations from a re-analysis of the deposited data

How the results depend on the processing

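No paired analysis was possible because each time point holds 1 library. Of 28 member folds, 27 stayed within their counting interval with DESeq2 size factors, and all 28 with a prior count of 0.5 or no filter. With the deposited library factors 0 of 7 members had a log2 fold above 0 at any time, and the medians over the members were -0.81, -0.58, -1.16 and -1.29. Folds that were at least 2-fold higher by TMM became -0.22, -0.13, -1.07 and -1.29 for Sptan1 (5, 10, 30 and 60 min), -0.32, -0.41 and -1.15 for Sptb (5, 10 and 60 min), -0.26, -0.20, -0.23 and -0.49 for Sptbn1, and -0.58, -1.03 and -1.17 for Sptbn4 (10, 30 and 60 min). That scaling moves the median of all genes to -1.59, -1.89, -2.16 and -2.46. With log2(TPM + 1), 13 of 28 stayed within it and 15 did not. The 2-fold calls of Sptan1 and Sptbn4 were lost, and 2 folds changed sign, Add1 at 5 min (0.55) and Add2 at 60 min (-0.04). The medians over the members were then 0.55, 0.62, 0.49 and 0.35. The alpha to beta density ratio was 5.20, 2.82, 2.93, 3.04 and 2.28 from TPM. Without Sptbn4, a choice added once the data had been seen, it was 2.15, 2.22, 2.29, 1.26 and 1.29. The TPM-based ratios to 0 min and percentiles among genes with at least 100 counts at 0 min, which moved by at most 3.31 points, were also added then. Of the 21 nearest genes, 6 remained when CDS length had to be within 20%, and 21 with the deposited factors. Depth limits the late values of Add3 (251 counts at 60 min) and Sptb (302 at 30 min), among others.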

Other observations

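Sptb and Sptbn1 have nearly the same CDS length (6990 and 7092 nt), and each has the same course in both deposited tables. Their ratios to 0 min had overlapping counting intervals at 5 and 10 min and lay apart at 30 min (0.448 and 0.855) and 60 min (0.452 and 0.710). No replicate library bears on this difference.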
